A study of Mus musculus with 10 samples.

Results

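Heterotrimeric G proteins carry signals from seven-pass receptors at the cell surface to enzymes and channels inside the cell, and 10 genes for their subunits were examined in lactating mammary glands of QSi5 and CBA mice. The genes were Gnai1, Gnai2, Gnai3, Gnaq, Gna11 and Gna13 for α subunits, Gnb1 and Gnb2 for β subunits, and Gng5 and Gng12 for γ subunits. Every probe set to which the platform annotation gives exactly 1 gene symbol, equal to 1 of these names, was taken, which gave 22 of the 20380 probe sets with a single symbol and covered 9 of the 10 genes, where 12393 genes had such a probe set in all. No probe set was taken for Gng5, because each of the 3 probe sets that name it also names the pseudogene Gng5-ps.

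An α subunit holds GDP at rest and is bound by a paired β and γ subunit. An activated receptor exchanges the GDP for GTP, the α subunit separates from the βγ pair, and both act on targets until the α subunit hydrolyses its GTP, a step that RGS proteins speed up. Gi subunits lower cyclic AMP by inhibiting adenylyl cyclase, and Gq and G11 activate phospholipase C β. In the mammary gland such receptors include the oxytocin receptor of myoepithelial cells, through which milk is ejected, and the calcium-sensing receptor of the secretory epithelium.

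QSi5 is an inbred strain bred from Quackenbush-Swiss stock, in which mice with many pups and frequent litters were chosen as parents, and CBA (CBA/CaH) is an inbred strain without such selection. Nulliparous females of each strain were mated within the strain, and an inguinal gland was taken at lactation day 9 of the first lactation from 5 QSi5 and 5 CBA mice, 1 array per mouse; the series record speaks of forced weaning at that time, and while an age at mating is in the methods, the age at collection is not given in the sources used here. The methods name the MOE430A 2.0 chip, whereas by the sample records 3 mice of each strain were hybridised to the MOE430 2.0 chip, here called the larger chip, and 2 of each to the MOE430A 2.0 chip, the smaller. Apart from the forced weaning in the series record, no treatment or transgene is named in the sources used here. The comparison asks which subunit transcripts differ between glands of a strain with higher and a strain with lower maternal performance.

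Values are log2 intensities from robust multi-array averaging (RMA), and differences are QSi5 minus CBA on that scale, so that a difference of -1 stands for a halved intensity. An intensity depends on the probes as well as on the transcript, and therefore levels are compared between strains and not between probe sets. Whether the strains differ in sequence under a probe was not examined, so a strain difference in intensity may not be one in transcript level. Array medians lay between 4.21 and 4.30, and correlations between arrays across tested probe sets lay between 0.958 and 0.992. All 10 markers of secretory luminal epithelium exceeded an unlogged mean intensity of 20 in QSi5 or CBA glands, the minimum for testing, as did 6 of 8 myoepithelial, 4 of 7 adipocyte, 3 of 6 endothelial, 5 of 9 leukocyte, 4 of 5 fibroblast and 1 of 4 skeletal muscle markers. Xdh, xanthine oxidoreductase of the milk fat globule membrane, was higher in QSi5 glands by 0.73 (limma, adjusted p = 0.0011), and Krt8, a luminal keratin, was lower, with a difference of -0.83 (adjusted p = 0.0161); no other marker passed the test without a block. With chip type as a block 2 more passed, Fabp4, an adipocyte fatty acid carrier, with a difference of -0.73 (adjusted p = 0.0383, against 0.132 without the block), and Lalba, the α-lactalbumin gene, with 0.40 (0.0405 against 0.0845, both from limma). Krt8 did not pass without QSi5 replicate 3 (adjusted p = 0.0514). In whole glands, fewer cells of a type and less RNA per cell cannot be told apart.

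The 2 subunit genes with a probe set past the test, Gnai1 and Gng12, are shown by the 250 bases before their RefSeq start on the GRCm38.p6 build. The sequences come from the C57BL/6J reference and not from either strain, they run 5′ to 3′ in the sense of the gene, and capitals mark each GC box (GGGCGG, or CCGCCC where it lies on the opposite strand), the core element bound by Sp1-type factors. The Gnai1 window is chr5:18360414-18360663 on the minus strand, upstream of a gene that spans 18265135 to 18360413 on chromosome 5, and the Gng12 window is chr6:66896147-66896396 on the plus strand, before a gene that spans 66896397 to 67021361 on chromosome 6.
Gnai1: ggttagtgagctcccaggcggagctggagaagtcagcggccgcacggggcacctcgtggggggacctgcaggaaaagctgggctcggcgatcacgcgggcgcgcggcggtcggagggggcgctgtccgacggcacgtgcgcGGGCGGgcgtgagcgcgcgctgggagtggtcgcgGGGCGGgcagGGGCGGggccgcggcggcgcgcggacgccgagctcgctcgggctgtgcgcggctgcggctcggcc
Gng12: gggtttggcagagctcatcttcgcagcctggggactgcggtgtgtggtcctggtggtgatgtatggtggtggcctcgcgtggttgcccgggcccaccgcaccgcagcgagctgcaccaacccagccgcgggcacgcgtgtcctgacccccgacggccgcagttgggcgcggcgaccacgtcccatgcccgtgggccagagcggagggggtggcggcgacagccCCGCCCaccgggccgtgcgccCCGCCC

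The Gnai1 window held 3 GC boxes and 79.2% G and C, and the Gng12 window held 2 and 74.4%, where the median over all 32851 windows of this length was 52.4%. A second RefSeq start of Gng12, with a window at chr6:66896641-66896890, held no GC box (0 matches). RefSeq windows were matched for 9 of the 10 genes, 10 windows in all, and 7 of them held a GC box on either strand, which 10756 of all 32851 windows (32.7%) also did. The windows of Gnaq, with 4 GC boxes, Gnb1 and Gng5, with 3 each, and Gna11 and Gna13, with 2 each, held the element, and those of Gnai3 and Gnb2 did not (0 matches each). The full cyclic AMP response element (TGACGTCA, its own reverse complement) was in 0 of the 10 windows and in 508 of all windows (1.5%). Gnai2 had no entry. These matches describe the letters of the reference sequence and were not related to the strain differences.

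Of the 22 probe sets, 18 passed the intensity minimum in at least 1 strain and were tested with the 11412 probe sets that passed across the array. Of these 18, 15 passed in both strains, 1 Gna13 probe set passed through QSi5 alone, and 1 probe set each of Gnai1 and Gng12 passed through CBA alone, so that a probe set of this last kind was retained only because its CBA level lay above the minimum. At an adjusted p under 0.05, 2 probe sets were differentially expressed, where 336 of the 11412 (2.94%) were called in either direction and 1.51% were called lower. One was the brightest Gnai1 probe set, which passed the minimum in both strains, and the other was Gng12 1455089_at, which passed it through CBA alone, so that its lower value in QSi5 glands is given as a value and not as a count of direction. At an unadjusted p under 0.01 the only further probe set was Gnai1 1434440_at, also retained through CBA alone, where 6.49% of all probe sets passed and 3.42% passed as lower. The strains were fully apart for the 2 probe sets called, as they were in 5.14% of all tested probe sets in either direction and in 2.63% with QSi5 lower. Both were picked by their p on the same arrays, so that this separation is largely built in and adds no support. Nothing is read from these shares for the subunits as a group, since they rest on very few probe sets, several of which report the same transcript.

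The median difference of the 18 was 0.04, with 9 below 0 and 9 above, and the median over all tested probe sets was 0.00. Median sizes of the difference were 0.17 for the 18 and 0.14 for all. The 16 probe sets that did not pass had differences between 0.0035 and 0.44 in size, and their 95% intervals lay within -0.76 and 0.84.

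**Figure D1:**
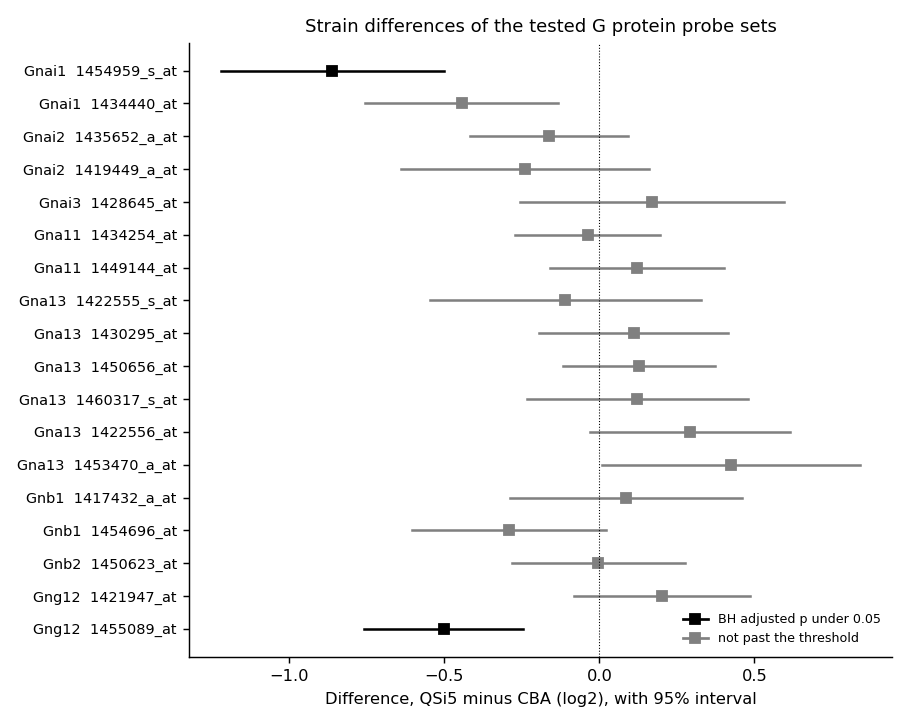
Strain difference of each of the 18 tested G protein probe sets on the log2 scale (horizontal axis, QSi5 minus CBA), with squares for the difference and lines for the 95% interval, black where the adjusted p was under 0.05. The brightest Gnai1 probe set, at -0.86, and the dimmer Gng12 probe set, at -0.50, are the 2 in black, and the intervals of all but 2 of the others span 0.

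Gnai1 encodes a Gi α subunit that inhibits adenylyl cyclase, and its brightest probe set alone passed the test, lower in QSi5 glands. This probe set, 1454959_s_at, gave 5.94, 5.53, 5.75, 5.13 and 5.82 in the QSi5 mice, against 6.14, 6.64, 6.54, 6.75 and 6.40 in the CBA mice. Every QSi5 mouse lay below every CBA mouse. Mean levels were 5.63 ± 0.32 in QSi5 and 6.49 ± 0.24 in CBA glands (SD, n = 5 each), a difference of -0.86 (SE 0.16, 95% interval -1.22 to -0.50), or 0.551 times the CBA intensity, with an adjusted p of 0.0131 in limma. Within the larger chip the difference was -0.86 and within the smaller chip it was -0.86, and with chip type as a block the adjusted p was 0.0123. It passed when each mouse was left out in turn, with adjusted p-values from 0.00896 to 0.0433. It did not pass on the larger chip alone (6 arrays, adjusted p = 0.170) or the smaller chip alone (4 arrays, adjusted p = 0.239). Omission of probe sets whose names end in _x_at or _s_at removed it, and the other tested one, 1434440_at, passed in 0 of 20 alternatives.

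The other Gnai1 probe sets were dim. Probe set 1434440_at gave 4.32, 3.90, 3.92, 4.05 and 4.09 in QSi5 mice, against 4.57, 4.39, 4.58, 4.86 and 4.09 in CBA mice. Here the strains overlapped, since the lowest CBA mouse lay at the level of the QSi5 mice. The difference of -0.44 (SE 0.14) had an unadjusted p of 0.0091 and did not pass after adjustment (limma, adjusted p = 0.147), and its unadjusted p was 0.0111 with chip type as a block and under 0.01 in 6 of 20 alternatives. Because this probe set entered the test only through its CBA level and shares an annotation record with the brightest, it adds no independent gene. The third, 1427510_at, stayed below the minimum in both strains, at 3.76 ± 0.25 in QSi5 and 4.04 ± 0.24 in CBA glands, and its difference was -0.57 within the larger and 0.16 within the smaller chip.

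QSi5 replicate 4 was the lowest mouse for the brightest Gnai1 probe set, and the same mouse had the highest mean over the 5 leukocyte markers tested. That mean ran between 5.82 and 7.42 in QSi5 and between 5.81 and 6.64 in CBA glands, and the highest QSi5 value was that of replicate 4. Without this mouse the Gnai1 difference was -0.73 (adjusted p = 0.0207). Marker means for secretory epithelium ran between 11.94 and 12.02 in QSi5 and 11.84 and 12.05 in CBA glands, and for myoepithelium between 6.64 and 7.83 in QSi5 and 7.04 and 7.89 in CBA glands. For endothelium they ran between 4.30 and 4.66 in QSi5 and 4.54 and 4.90 in CBA glands. The endothelial cadherin gene Cdh5 lay between 3.84 and 4.19 in QSi5 and between 4.25 and 4.56 in CBA glands, with the strains fully apart, and its difference of -0.32 had an unadjusted p of 0.0095 and an adjusted p of 0.150 in limma. For adipocytes they ran between 6.80 and 7.19 in QSi5 and 6.80 and 7.69 in CBA glands, and for fibroblasts between 5.78 and 7.09 in QSi5 and 5.70 and 7.00 in CBA glands. The adipocyte marker Fabp4 lay between 8.94 and 9.52 in QSi5 and between 9.40 and 10.70 in CBA glands, with a difference of -0.42 within the larger and -1.19 within the smaller chip. Cdh5 and Fabp4 were lower in QSi5 glands in these values, Cdh5 at unlogged means of 16.7 in QSi5 and 20.9 in CBA glands. Of the other adipocyte markers tested, Adipoq differed by -0.07, Retn by -0.11 and Lep by 0.09. Of the other endothelial markers tested, Cldn5 differed by -0.20 and Kdr by -0.13, and none of these other markers passed in limma. Cdh5 and Cldn5 exceeded the intensity minimum through CBA alone. The ranges of the strains overlapped for the mean of every one of these lists, and the part of cell makeup in the Gnai1 difference was not tested.

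**Figure D2:**
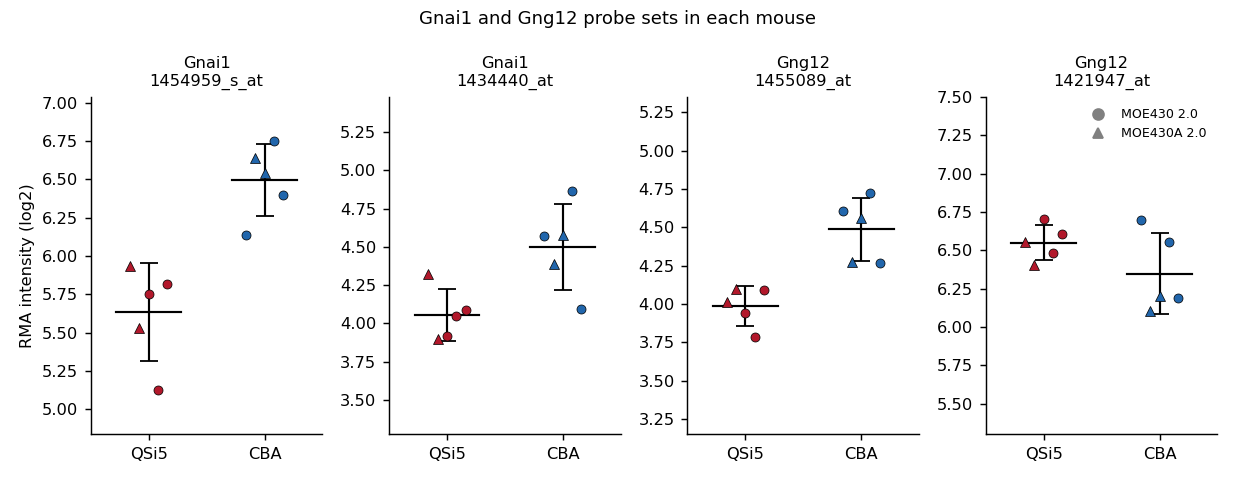
RMA intensity (log2, vertical axis, each panel spanning the same number of log2 units) of 2 Gnai1 and 2 Gng12 probe sets in each QSi5 mouse (red) and each CBA mouse (blue), with the mean and SD of 5 mice as black lines and the chip type as the marker shape. QSi5 mice lie below all CBA mice for Gnai1 1454959_s_at and Gng12 1455089_at, and the strains overlap for Gnai1 1434440_at and Gng12 1421947_at.

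Gnai2 and Gnai3 encode the other 2 Gi subunits examined, and neither passed the test. Gnai2 probe set 1435652_a_at gave 8.10, 8.12, 8.03, 8.43 and 8.01 in QSi5 mice, against 8.54, 8.30, 8.37, 8.14 and 8.15 in CBA mice. All QSi5 mice but replicate 4 lay below the CBA range, and the difference was -0.16 (95% interval -0.42 to 0.09, adjusted p = 0.577). The dimmer 1419449_a_at averaged 4.81 ± 0.33 in QSi5 and 5.05 ± 0.32 in CBA glands, a difference of -0.24 (-0.64 to 0.16, adjusted p = 0.600). Gnai3 probe set 1428645_at gave 7.08, 6.56, 6.87, 6.64 and 7.09 in QSi5 mice, against 7.19, 6.47, 6.10, 6.97 and 6.67 in CBA mice. The CBA mice spread over a wider range that held all QSi5 values, and the difference was 0.17 (-0.26 to 0.59, adjusted p = 0.743), at -0.08 within the larger and 0.54 within the smaller chip. The second Gnai3 probe set, 1437225_x_at, lay below the minimum.

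The Gnai1 difference was compared with those of the other Gi subunits, a comparison that was chosen after these values had been seen. Gnai1 was picked for its strain difference on the same arrays, and the p-values below do not allow for that choice. They are given as description, and whether Gnai1 departs from its relatives is not decided by them. The brightest Gnai1 probe set was set against that of Gnai2 or Gnai3 within each mouse, and the gap was compared between strains by an exact two-sided permutation test over all splits of the 10 mice into groups of 5. Relative to Gnai2, Gnai1 was 0.70 lower in QSi5 glands (a gap difference of -0.70, exact p = 0.0317, adjusted over both comparisons p = 0.0317). Against Gnai3 the gap difference was -1.03 (exact p = 0.0159, adjusted p = 0.0317). The sign was the same on each chip type, with -0.74 within the larger and -0.63 within the smaller chip for Gnai2, and -0.79 and -1.39 for Gnai3. These chip values, and the fits without 1 mouse, reuse the arrays on which Gnai1 was picked and add no support. The comparison with Gnai3 passed whichever mouse was left out. That with Gnai2 did not pass without QSi5 replicate 4 (exact adjusted p = 0.0556) or without CBA replicate 2, 3, 4 or 5 (0.0714 each by the same exact test).

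Gnaq, which couples receptors such as that for oxytocin to phospholipase C β, was represented by 1 probe set, 1450115_at. It gave 3.84, 4.21, 4.36, 4.51 and 4.24 in QSi5 mice, against 4.49, 4.18, 3.82, 4.54 and 4.44 in CBA mice. The strains overlapped widely, and the mean unlogged intensities of 18.8 in QSi5 and 19.6 in CBA glands fell just short of the minimum of 20, so that it was not tested in the main comparison. With no minimum its difference of -0.06 had an adjusted p of 0.930.

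Gna11, the closest relative of Gnaq with the same effector, did not pass on either probe set. Probe set 1434254_at gave 6.51, 6.40, 6.35, 6.08 and 6.59 in QSi5 mice, against 6.43, 6.49, 6.32, 6.45 and 6.42 in CBA mice. CBA mice lay close together within the QSi5 range, with SDs of 0.19 in QSi5 and 0.06 in CBA glands, and the difference was -0.04 (95% interval -0.27 to 0.20, adjusted p = 0.910). Probe set 1449144_at averaged 6.31 ± 0.19 in QSi5 and 6.19 ± 0.21 in CBA glands, a difference of 0.12 (-0.16 to 0.40, adjusted p = 0.716), which was -0.07 within the larger and 0.41 within the smaller chip.

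Gna13, which encodes an α subunit of the G12 class, had 6 probe sets, all of them tested, and none passed after adjustment. The brightest, 1422555_s_at, gave 7.89, 7.77, 7.56, 7.85 and 7.95 in QSi5 mice, against 7.85, 8.23, 8.55, 7.35 and 7.59 in CBA mice. QSi5 mice lay within the CBA range, where the 2 highest mice were those on the smaller chip, and the SDs were 0.15 in QSi5 and 0.48 in CBA glands. The difference was -0.11 (-0.55 to 0.33, adjusted p = 0.855), with 0.19 within the larger and -0.56 within the smaller chip. The other 5 probe sets were all above 0, at 0.11 for 1430295_at, 0.13 for 1450656_at, 0.12 for 1460317_s_at, 0.29 for 1422556_at and 0.43 for 1453470_a_at. Only the last had an interval above 0 (0.01 to 0.84, unadjusted p = 0.0461 and adjusted p = 0.321 in limma), with 4.63, 4.52, 4.71, 5.06 and 4.35 in QSi5 mice, against 4.35, 3.77, 3.92, 4.78 and 4.34 in CBA mice. This probe set, which overlapped between the strains, entered the test through its QSi5 level alone. The 6 probe sets fall under 2 annotation records, 4 under 1 and 2 under the other, and are therefore not 6 separate transcripts.

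Gnb1 and Gnb2 encode β subunits, the propeller-shaped partners that bind γ subunits and hold the resting α subunit. Gnb1 probe set 1417432_a_at gave 7.34, 6.87, 6.82, 6.80 and 6.95 in QSi5 mice, against 7.09, 6.96, 7.00, 7.06 and 6.24 in CBA mice. A single mouse lay far from the rest in each strain, high in QSi5 and low in CBA, and the difference of 0.09 (-0.29 to 0.46, adjusted p = 0.868) turned to -0.01 without QSi5 replicate 1 and to -0.07 without CBA replicate 5. Gnb1 probe set 1454696_at gave 7.02, 6.86, 6.43, 6.58 and 6.77 in QSi5 mice, against 7.28, 6.87, 7.25, 6.98 and 6.73 in CBA mice. Here the QSi5 mice were lower on average but overlapped the CBA mice, at a difference of -0.29 (-0.60 to 0.02, unadjusted p = 0.0658 and adjusted p = 0.372 in limma). The third Gnb1 probe set, 1425908_at, lay below the minimum in both strains. Gnb2 had 1 probe set, 1450623_at, with 6.80, 6.52, 6.45, 6.64 and 6.53 in QSi5 mice, against 6.93, 6.61, 6.70, 6.32 and 6.40 in CBA mice. Its strain means were both 6.59, and the difference had an interval of -0.28 to 0.28 (adjusted p = 0.993).

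Gng12, a γ subunit that is prenylated and anchors the βγ pair to membranes, gave strain differences of opposite sign on its 2 probe sets, and the dimmer of them passed the test. Probe set 1455089_at gave 4.01, 4.10, 3.94, 3.78 and 4.09 in QSi5 mice, against 4.61, 4.27, 4.56, 4.72 and 4.27 in CBA mice. All QSi5 mice lay below all CBA mice. Mean levels were 3.99 ± 0.13 in QSi5 and 4.49 ± 0.21 in CBA glands (SD, n = 5 each), a difference of -0.50 (SE 0.12, 95% interval -0.76 to -0.24), or 0.706 times the CBA intensity, with an adjusted p of 0.0414 in limma. Within the larger chip it was -0.59 and within the smaller -0.36, and with chip type as a block the adjusted p was 0.0439.

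Because the mean unlogged intensities of this probe set were 15.8 in QSi5 and 22.4 in CBA glands, it passed the minimum through CBA alone. Its call was sensitive to single mice. It passed without CBA replicate 2 (adjusted p = 0.0439) and without CBA replicate 5 (0.0362 in the same limma fit), and did not pass when any of the other 8 mice was left out, with adjusted p-values between 0.0541 and 0.115. The brighter probe set, 1421947_at, gave 6.56, 6.40, 6.70, 6.48 and 6.61 in QSi5 mice, against 6.70, 6.10, 6.20, 6.56 and 6.19 in CBA mice. These values overlapped, and the difference was 0.20 (-0.08 to 0.48, adjusted p = 0.521).

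Probe sets of 1 gene were compared with each other within each mouse, which takes out what a mouse shares across both. The gap between the brightest tested probe set and each other one was compared between strains for 10 pairs, by the same exact two-sided permutation test. The smallest p that this test can give is 0.00794, and a single pair at that p adjusts to 0.0794, so that no 1 pair could have passed by itself. For Gng12 the gap was 2.54, 2.31, 2.76, 2.70 and 2.51 in QSi5 mice, against 2.09, 1.83, 1.64, 1.83 and 1.92 in CBA mice. The strains did not overlap, the gap was 0.70 wider in QSi5 glands (exact p = 0.00794, adjusted p = 0.0794), and the value was 0.71 within the larger and 0.69 within the smaller chip. In a limma fit of the 10 gaps with chip type as a block it passed, with an adjusted p of 0.000853, the only pair to do so. The limma fit was an alternative to the exact test, which was too coarse for a call. The dimmer Gng12 probe set was retained through its CBA level alone, a filter that favours a wider gap in QSi5 glands. The gap is therefore given as values, with no conclusion on whether the Gng12 probe sets differ.

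Gaps of the remaining pairs did not pass under either fit. For Gnb1 the gap between 1417432_a_at and 1454696_at was 0.38 wider in QSi5 glands (exact p = 0.0238, adjusted p = 0.119), and for Gnai1 the gap between 1454959_s_at and 1434440_at was 0.42 narrower (a gap difference of -0.42, exact p = 0.0635, adjusted p = 0.212). The remaining 7 pairs, 1 of Gnai2, 1 of Gna11 and 5 of Gna13, had adjusted exact p-values between 0.337 and 0.556.

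**Figure D3:**
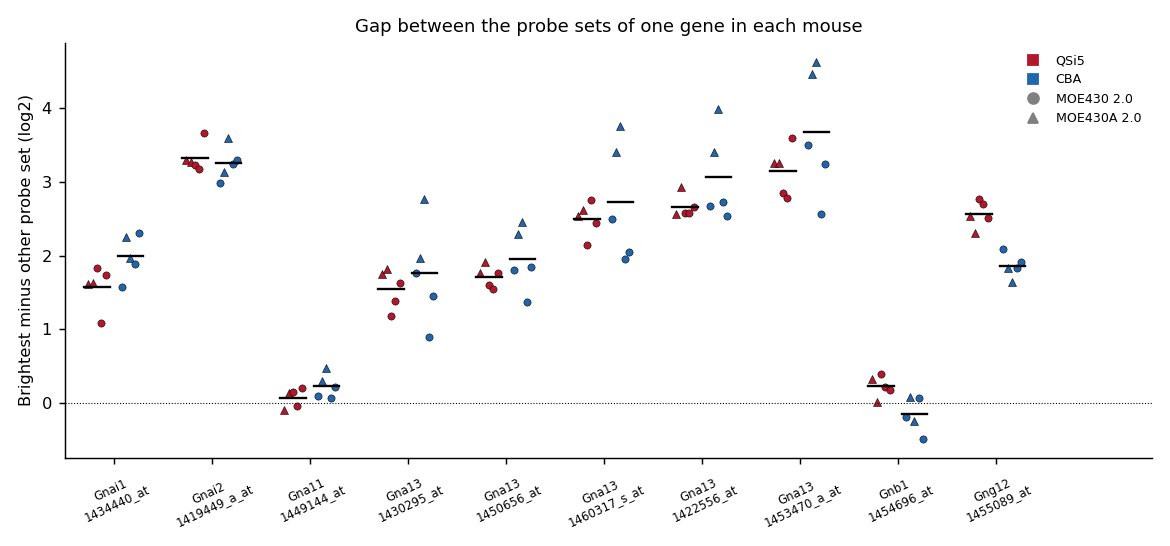
Gap between the brightest tested probe set of a gene and each other tested probe set of it (vertical axis, log2), in each QSi5 mouse (red, left) and each CBA mouse (blue, right), with black lines at strain means, marker shapes for chip type and the other probe set named below. The Gng12 pair, at the right, is the pair whose strains are fully apart, with QSi5 gaps from 2.31 to 2.76 and CBA gaps from 1.64 to 2.09.

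Chip type was balanced between the strains, with 3 and 2 mice each, and allowed the comparison to be made within each chip. Of the 18 probe sets, 11 had the same sign on both chips, as had 7189 of all 11412. The 3 probe sets with an unadjusted p under 0.01 were lower in QSi5 glands on both, from -0.86 to -0.49 within the larger and from -0.86 to -0.36 within the smaller chip. They were picked by that p over the same arrays, so an equal sign on both chips is largely built in and adds no support. Gnai1 has 2 of the 3, and Gnai1 1434440_at and Gng12 1455089_at were retained through CBA alone. The 7 that changed sign were Gnai3 1428645_at, both Gna11 probe sets, Gna13 1422555_s_at, 1450656_at and 1460317_s_at, and Gnb2, and none of these passed the test. With 2 mice per strain on the smaller chip, each such value rests on 4 arrays.

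**Figure D4:**
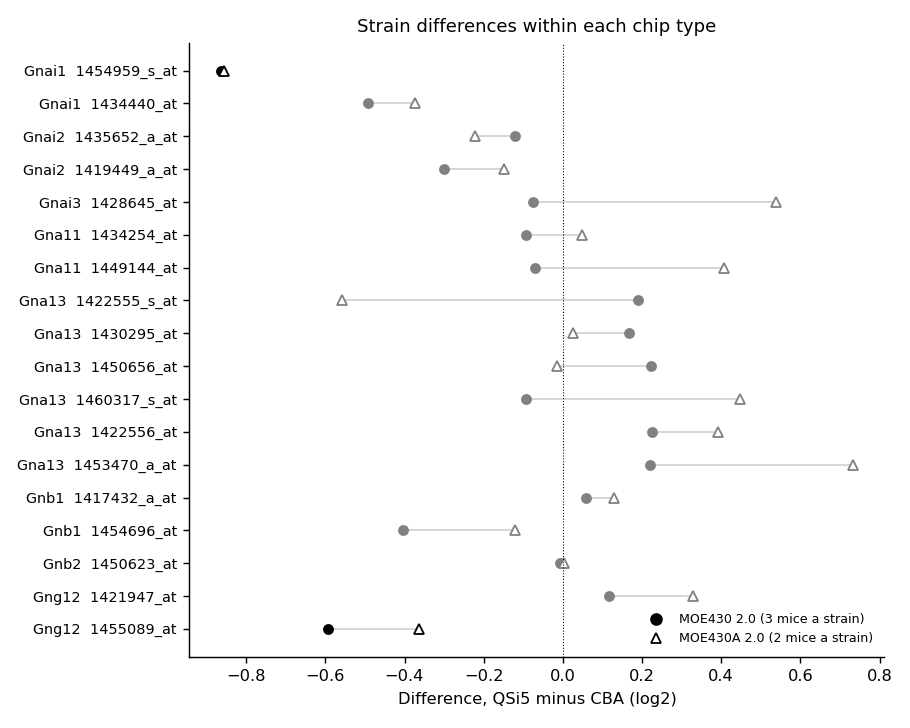
Strain difference (horizontal axis, QSi5 minus CBA, log2) of the 18 tested probe sets on the larger chip, MOE430 2.0 (filled circles, 3 mice a strain), and the smaller, MOE430A 2.0 (open triangles, 2 mice a strain), black for the 2 probe sets past the test. Circle and triangle coincide at -0.86 for Gnai1 1454959_s_at, and for Gna13 1422555_s_at they lie at 0.19 and -0.56.

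The genes whose profile over the 10 arrays was most like that of a subunit were found by the root mean square (RMS) difference from it, after each probe set was centred on its own mean, over the brightest tested probe set of each gene. Nearest to the brightest Gnai1 probe set were Mtap, an enzyme of methionine salvage, with an RMS difference of 0.184, Dst, a cytoskeletal linker, with 0.222, and Slc35a1, the Golgi transporter of CMP-sialic acid, with 0.223. For Gnai1 1434440_at they were Nudt9, an ADP-ribose hydrolase, with an RMS difference of 0.136, Rbmxl1, an RNA-binding protein gene, with 0.159, and Gnptab, of the enzyme that tags lysosomal hydrolases with mannose phosphate, with 0.161. For Gng12 1455089_at they were Pcp4, a calmodulin-binding protein gene, with 0.138, Ttc7b, with 0.141, and Vti1a, a vesicle SNARE, with 0.144. The lists did not share a gene, and the likeness rests on 10 arrays that also carry the strain difference.

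The rest of the pathway was followed through 7 lists of related genes, of which 59 genes had a tested probe set, each gene represented by its brightest. Of these 59, 1 was higher and 1 was lower in the QSi5 strain, both of them receptors, where 199 of 7361 genes (2.70%) were called in either direction, 1.32% as higher and 1.39% as lower. By the same measure, 1 of the 8 subunit genes with a tested probe set, Gnai1, was called.

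Among receptors, 25 of 37 listed genes had a single-symbol probe set and 9 were tested. Ptger2, the EP2 receptor for prostaglandin E2, which couples to Gs and raises cyclic AMP, gave 6.18, 6.89, 6.43, 6.18 and 6.95 in QSi5 mice, against 4.19, 3.99, 4.36, 4.29 and 4.82 in CBA mice. The strains were far apart, with a difference of 2.20 (SE 0.19, adjusted p = 2.64e-05 in limma), at 2.09 within the larger and 2.36 within the smaller chip. F2r, the thrombin receptor PAR1, which couples to Gi, Gq and G12/13 subunits, gave 4.86, 4.08, 4.61, 5.51 and 4.72 in QSi5 mice, against 5.70, 5.83, 6.51, 5.51 and 5.63 in CBA mice. Its strains met at 5.51, the highest QSi5 and the lowest CBA value, and the difference was -1.08 (SE 0.25, adjusted p = 0.0376), at -0.66 within the larger and -1.70 within the smaller chip. The F2r call was lost when any mouse other than QSi5 replicate 4 or CBA replicate 4 was left out, with adjusted p-values up to 0.107. The other 7 receptors tested, among them Ptger4, with -0.46 (adjusted p = 0.465), Lpar1, with -0.26, and the calcium-sensing receptor Casr, with -0.11, did not pass. Oxtr, the oxytocin receptor, was below the minimum in both strains and was not tested.

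Of 23 further subunit genes listed, 9 were tested and 0 passed in limma, and their median difference was 0.13. Gnas, the stimulatory α subunit, averaged 9.88 in QSi5 and 9.65 in CBA glands (difference 0.23, adjusted p = 0.461), and Gnb4 averaged 9.30 in QSi5 and 9.05 in CBA glands (0.25, adjusted p = 0.595). Of the remaining 7, Gna12, Gng4, Gnao1 and Gng3 had differences between 0.11 and 0.20, and Gna14, Gng11 and Gng13 differences between -0.39 and -0.03. At an unadjusted p under 0.05 the count was 0 as well.

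Among RGS proteins, which shorten the signal of Gi and Gq subunits, 0 of 8 tested (of 17 listed) passed in limma, and the largest difference was that of Rgs10, 0.29 (adjusted p = 0.353). Of the chaperones, activators and lipid-modifying enzymes that fold subunits, exchange their nucleotide or attach their membrane anchors, 0 of 11 tested (of 18 listed) passed, with a median of -0.03. Of the effectors, among them adenylyl cyclases, phospholipases and channels, 0 of 11 tested (of 25 listed) passed after adjustment. Adcy9, an adenylyl cyclase, had an unadjusted p of 0.0097 and averaged 6.99 ± 0.18 in QSi5 and 6.57 ± 0.25 in CBA glands (difference 0.42, limma, adjusted p = 0.151). Of the cyclic AMP relay, among them protein kinase A subunits, anchoring proteins and phosphodiesterases, 0 of 10 tested (of 22 listed) passed, with a median of 0.04. Of 8 receptor kinases and arrestins the only gene tested, Grk6, did not pass, at 0.08. Over these 5 lists, 1 gene, Adcy9, had an unadjusted p under 0.05 in limma.

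**Figure D5:**
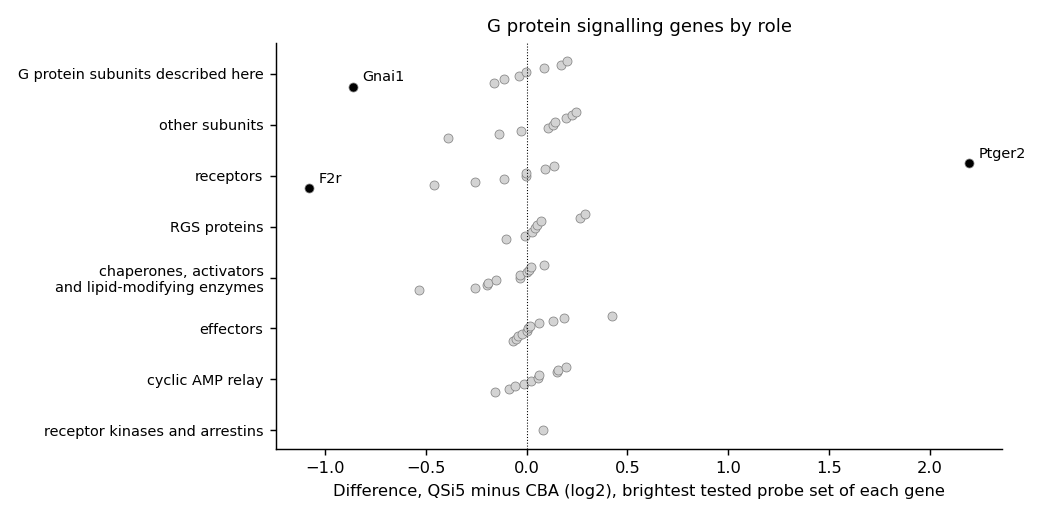
Strain difference (horizontal axis, QSi5 minus CBA, log2) of the brightest tested probe set of each gene, grouped by role down the page, with black points and names for genes with an adjusted p under 0.05 and grey points for the rest. Ptger2 at 2.20, F2r at -1.08 and Gnai1 at -0.86 stand outside the other genes, whose differences lie between -0.53 and 0.42.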

How the data were processed

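RNA from whole inguinal glands (5 QSi5 mice, 5 CBA mice, lactation day 9) was hybridised to Affymetrix chips, 1 array per mouse, and strains were read from the sample records. The deposited values are log2 intensities, which the authors made with RMA in the affy package; per the labels, the chip types were brought together on the 22690 probe sets found on both, and versions are not given in the sources used here. No further normalization was applied. After 64 control probe sets were set aside, 22626 remained, of which 20380 had 1 symbol, 691 several and 1555 none in the platform annotation; 20351 were matched by Entrez identifier and 0 symbols were updated. Where each probe lies within its gene was not examined, nor whether the strains differ in sequence under it.

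As in the methods, a probe set was tested if its unlogged mean was over 20 in either strain. Strain differences came from limma 3.58.1 under R 4.3.3, with lmFit and eBayes on all 10 arrays and two-sided tests, and were adjusted by Benjamini-Hochberg over 11412 probe sets, with thresholds of 0.05 adjusted and 0.01 unadjusted. The fit was tested on simulated data. Gaps between probe sets were tested by exact permutation. The number of arrays limits the precision. The limma p-values set each difference against the spread between single mice within the strains, which limma draws toward a value shared by all tested probe sets.

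The members and lists were chosen with earlier results of these data known. All subunit probe sets are named; of each other list, genes past an adjusted p of 0.05, and where fewer than 2 passed those under an unadjusted p of 0.01 (at most 4), and for each subunit probe set under 0.01 the 3 genes with the most similar profile. Other related and marker genes were named after their values were seen. Alternatives were an intensity minimum of 50 or none, a second quantile normalization, median centring, chip type or replicate number as a block, each chip alone, an intensity trend, array weights, omission of probe sets whose names end in _x_at or _s_at, and omission of each mouse. Promoter sequences are RefSeq's for GRCm38.p6. Pup growth, gland histology and PCR measurements were not analysed here.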

Additional observations from a re-analysis of the deposited data

Results flagged for a closer look

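Each strain's 5 values were examined for a mouse far from the others in all 18 tested probe sets, 36 sets of values, of which chance marks about 1 in 20. For Gnai2 1435652_a_at, QSi5 replicate 4 stood at 8.43, and the next QSi5 mouse at 8.12. For Gnb1 1417432_a_at, QSi5 replicate 1 stood at 7.34, with the next QSi5 mouse at 6.95. In the same probe set CBA replicate 5 stood at 6.24, with the next CBA mouse at 6.96. None of these 3 values belongs to a probe set past the test.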

How the results depend on the processing

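The brightest Gnai1 probe set kept its direction under all 20 alternatives and passed in 17 of them, and the dim Gng12 probe set kept its direction in all 20 and passed in 9. The count of subunit probe sets called, 2, fell to 1 at an intensity minimum of 50, where the dim Gng12 probe set was no longer tested, and to 1 without _x_at and _s_at probe sets, which removed the brightest Gnai1 probe set. It was 0 on the MOE430 2.0 arrays alone and 0 on the MOE430A 2.0 arrays alone, where fewer mice remained, and 1 to 2 when 1 mouse was left out. The count at an unadjusted p under 0.01, 3, was 1 at the minimum of 50 and 2 to 3 when 1 mouse was left out. It was 2 with median centring, chip type as a block, the replicate block, array weights, each chip alone and without _x_at and _s_at probe sets, and 3 under the remaining alternatives. The probe sets counted were not always the same. On the MOE430A 2.0 arrays alone they were Gnai1 1454959_s_at and Gna13 1453470_a_at, the latter higher in QSi5 glands by 0.73 (limma, unadjusted p = 0.0087). The count of related genes called, 2, was 1 on the MOE430 2.0 arrays alone, 1 on the MOE430A 2.0 arrays alone, 1 without _x_at and _s_at probe sets, and 1 to 2 when 1 mouse was left out. The count of probe set pairs, 0, was 1 in limma with chip type as a block and 0 whichever mouse was left out, where no single pair could have passed the exact test. With no intensity minimum the count of related genes stayed at 2, but F2r did not pass (adjusted p = 0.058) and Rgs2, which lies below the minimum of 20, did (difference 0.48, adjusted p = 0.0480 in limma).

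With the replicate number as a block, 0 subunit probe sets and 1 related gene passed in limma, with adjusted p-values of 0.0784 for Gnai1 and 0.160 for Gng12. Mice numbered 2, 4 and 5 were on the same chip type in both strains, and those numbered 1 and 3 were not. The sample records give no other link between mice of the same number. Deviations of same-numbered mice from the strain means correlated between -0.37 and 0.29, with 1 of 5 pairs over 0.1, so the number was not taken as a pairing.

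Reversed signs occurred only among values that did not pass. Gnb2 was 0.037 after a second quantile normalization, 0.0038 on the MOE430A 2.0 arrays alone and between -0.072 and 0.081 when 1 mouse was left out, above 0 in 6 of these 10 fits. On the MOE430 2.0 arrays alone Gnai3 1428645_at was -0.076, Gna11 1449144_at -0.070, Gna13 1422555_s_at 0.19 and Gna13 1460317_s_at -0.094. On the MOE430A 2.0 arrays alone Gna11 1434254_at was 0.047 and Gna13 1450656_at -0.015. When 1 mouse was left out, Gnb1 1417432_a_at ran from -0.071 (without CBA replicate 5) to 0.14, below 0 also without QSi5 replicate 1, Gna11 1434254_at ran from -0.088 to 0.039 (without QSi5 replicate 4), and Gna13 1422555_s_at from -0.25 to 0.0498 (without CBA replicate 3). Among gaps, that of Gnai2 ran from -0.0041 (without QSi5 replicate 5) to 0.16, and those of Gna13 1422555_s_at over 1430295_at and over 1460317_s_at from -0.44 to 0.028 and from -0.43 to 0.026, above 0 without CBA replicate 3 alone. The cause was not tested.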
